A study of Homo sapiens with 6 samples.

Results

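The Schlafen genes of the cluster on chromosome 17 are SLFN5, SLFN11, SLFN12, SLFN13, SLFN12L and SLFN14. They were taken by symbol from a deposited table of FPKM, a read measure corrected for how long the gene is and how deep the library, and make up 6 of its 62753 genes. The family was selected on the low FPKM of SLFN11 in the sgPARP1 libraries of this table, so the WT and sgPARP1 values of the 6 genes are given as a description, without a test. RNA came from cells labelled HepG2, a line from a human hepatocellular carcinoma, in 2 groups of 3 libraries. The WT group has the genotype WT, and the sgPARP1 group has the genotype PARP1 KO, made with CRISPR-Cas9. PARP1 is the enzyme that senses DNA breaks and attaches ADP-ribose chains to proteins. The labels name no drug or other treatment, and leave unsaid if the edited cells are 1 clone or a mixed population, if the WT cells carried Cas9, and if libraries of a group came from separate cultures. The spread between libraries, and any p-value from it, may therefore be technical.

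Schlafen proteins share an N-terminal core that can cut RNA, transfer RNA above all, and the longer members add a helicase-like C-terminal part. Several of the genes are switched on by interferon, and several of the proteins restrict viruses. SLFN11 is known for its role at damaged DNA: it is drawn to stalled replication forks through RPA, the protein that coats single-stranded DNA, and blocks replication there, and tumour cells that lack it often tolerate PARP inhibitors, topoisomerase inhibitors and platinum drugs. In tumours its promoter is often methylated, and the histone methyltransferase EZH2 has been reported to silence it.

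Promoter sequence was at hand for 3 of the 6 genes, SLFN11, SLFN12 and SLFN12L (RefSeq, GRCh38.p14, all minus strand). They are shown because no other member had a promoter sequence at hand. The 3 genes differ in the RNA described below: present in WT and nearly lost in sgPARP1, present in both groups, and without a read in either. Each run is the 250 bases before the gene's start in RefSeq, 5′ to 3′, with CpG dinucleotides, the sites of DNA methylation, in capitals. The windows are chr17:35373622-35373871 for SLFN11, chr17:35433175-35433424 for SLFN12 and chr17:35537679-35537928 for SLFN12L. The deposited table starts the genes SLFN11 and SLFN12 further upstream, so the last 80 bases of the SLFN11 window and the last 109 of the SLFN12 window lie inside the gene as the table gives it, while the SLFN12L start is the same in both.
SLFN11: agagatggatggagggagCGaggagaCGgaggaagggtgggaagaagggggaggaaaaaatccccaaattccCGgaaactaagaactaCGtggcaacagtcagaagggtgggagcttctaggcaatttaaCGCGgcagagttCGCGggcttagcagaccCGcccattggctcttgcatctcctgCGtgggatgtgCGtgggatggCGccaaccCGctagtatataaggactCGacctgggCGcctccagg
SLFN12: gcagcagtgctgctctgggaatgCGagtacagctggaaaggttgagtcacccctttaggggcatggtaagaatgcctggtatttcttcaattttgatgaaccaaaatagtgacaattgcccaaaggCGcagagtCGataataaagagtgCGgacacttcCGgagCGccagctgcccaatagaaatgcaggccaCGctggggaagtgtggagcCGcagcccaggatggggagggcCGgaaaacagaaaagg
SLFN12L: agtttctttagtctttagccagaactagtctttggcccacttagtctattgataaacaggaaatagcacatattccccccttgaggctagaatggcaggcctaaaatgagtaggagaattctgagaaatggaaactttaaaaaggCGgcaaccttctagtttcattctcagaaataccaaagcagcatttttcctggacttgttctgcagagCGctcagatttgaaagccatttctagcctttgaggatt

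The SLFN11 window holds 15 CpG and 57.6% G and C, the SLFN12 window 9 CpG and 53.2%, and the SLFN12L window 2 CpG and 40.8%. Over the 35116 promoters in the table the median was 11 CpG, and 57.1% of them had fewer than SLFN11, 45.9% fewer than SLFN12 and 14.7% fewer than SLFN12L. Motifs were searched on both strands. The ETS core CCGGAA, found in 14.5% of promoters, occurs once in SLFN11, 179 bases before the RefSeq start, and in SLFN12 at 94 and 17 bases before it, both inside the gene as the deposited table gives it. The SLFN11 copy overlaps a match to the STAT-type motif TTCNNNGAA (6.57% of promoters), which occurs at 2 places in SLFN12L and not in the SLFN12 window. The interferon-stimulated response element, searched as GAAA, any 2 bases and GAAA again (3.02% of promoters), matched once, in SLFN12L. The motif CCAAT (32% of promoters) occurs once in SLFN11 and once in SLFN12, 86 and 76 bases before the RefSeq start, and not in SLFN12L. The motif TATAAA (10.7% of promoters) was found in none of these windows. These are matches of letters only, and neither methylation nor binding was measured.

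Each library held 14842498 to 17305129 reads in genes, as worked out from the steps of the FPKM values, and 21437 to 21903 genes with a read. PARP1 RNA fell from 31.6 ± 0.169 FPKM to 4.31 ± 0.0827 FPKM (mean ± SD, n = 3 each; limma adjusted p = 7.3e-07), with no overlap, so the libraries match their WT and sgPARP1 labels. The liver markers do not go with the labelled cell type: of 10 hepatocyte markers 6 were listed at 0 in all 6 libraries, ALB, AFP, APOB, TTR, SERPINA1 and FGB, and the 10 together summed to at most 0.117 FPKM in a library. A value at or near 0 in this table need not be a true absence. TAF15, a broadly expressed RNA-binding protein gene close to the Schlafen cluster, was listed at no more than 0.0298 FPKM in every library. If the same holds for the hepatocyte markers was not tested.

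SLFN11 (ENSG00000172716, minus strand of chromosome 17, 35350305 to 35373701 in hg38) was at 1.46, 1.22 and 1.48 FPKM in the 3 WT libraries and at 0.0107, 0.0325 and 0.0194 FPKM in the 3 sgPARP1 libraries. Every sgPARP1 value lay far under every WT value, and the groups did not overlap. The means were 1.39 ± 0.145 and 0.0209 ± 0.011 FPKM (SD, n = 3 each), a level 98.5% lower in sgPARP1. In reads these are 151, 126 and 133 against 1, 3 and 2. With depth taken into account, the 410 WT reads and 6 sgPARP1 reads give a level 66.8-fold lower, with an exact 95% interval of 30.4 to 183 that covers counting error only. The sgPARP1 libraries thus sit at the edge of detection, where 1 read is worth 0.00966 to 0.0113 FPKM, and the fold is known only to within that interval. On the log2(FPKM + 1) scale, where low values are compressed, SLFN11 differed by −1.22 (log2 fold change, standard error 0.10). In bulk RNA, fewer cells with SLFN11 RNA and less of it in each cell cannot be told apart.

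**Figure D1:**
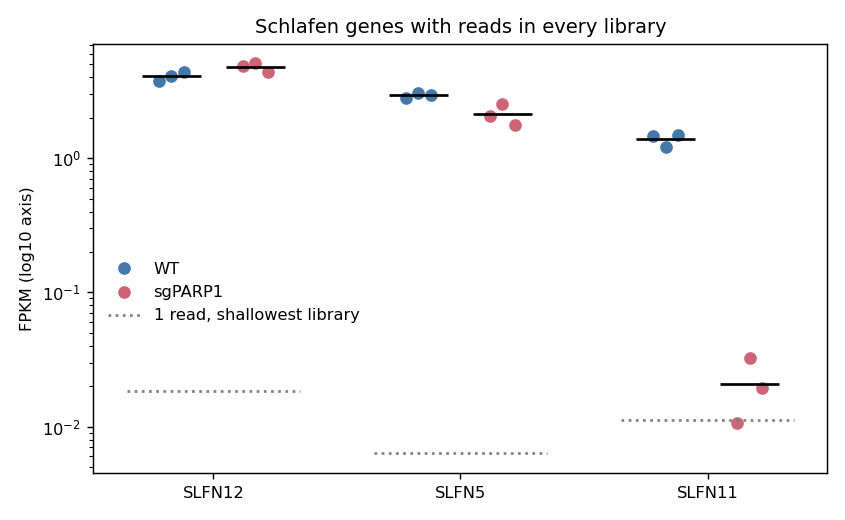
FPKM (log10 axis) of the 3 Schlafen genes that had reads in every library, 1 point per library, with WT in blue and sgPARP1 in red; black bars are group means and dotted lines the value of 1 read in the shallowest library. SLFN12 and SLFN5 stay between 1.77 and 5.07 FPKM in all 6 libraries, while SLFN11 drops from at least 1.22 FPKM in WT to at most 0.0325 FPKM in sgPARP1.

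SLFN5 (ENSG00000166750, plus strand, 35243071 to 35273655) encodes a nuclear member that represses transcription and restricts herpes simplex virus. It was at 2.81, 3.07 and 2.97 FPKM in WT and 2.05, 2.52 and 1.77 FPKM in sgPARP1, from 326 to 567 reads per library. The sgPARP1 values were all below the WT values and were more widely spread. The mean was 28.3% lower, at 2.12 ± 0.379 against 2.95 ± 0.135 FPKM (SD, n = 3 each), a log2 fold change of −0.35 (standard error 0.10).

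SLFN12 (ENSG00000172123, minus strand, 35410922 to 35433283) encodes a short member that cuts transfer RNA and, bound to the phosphodiesterase PDE3A by certain small molecules, kills tumour cells. Its values were 3.74, 4.08 and 4.37 FPKM in WT and 4.87, 5.07 and 4.39 FPKM in sgPARP1, from 237 to 287 reads. The groups barely separate, the lowest sgPARP1 value of 4.39 lying next to the highest WT value of 4.37 FPKM. The means were 4.06 ± 0.319 and 4.78 ± 0.348 FPKM (SD, n = 3 each). This is a log2 fold change of 0.19 (standard error 0.07).

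SLFN13, a cytoplasmic nuclease for transfer and ribosomal RNA that restricts HIV, had 1 read in 1 WT library and none in the other 5. SLFN14, which binds ribosomes and is mutated in an inherited platelet disorder, had 1 read in 1 sgPARP1 library and none elsewhere. SLFN12L, the closest relative of SLFN12, had no read in any library, which allows up to 0.0148 FPKM in the shallowest library when 3 reads are taken as the limit. No difference between the groups was detectable for these 3 genes at this depth, and their limits of 3 reads lie at 0.0127 to 0.0282 FPKM.

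SLFN5, SLFN11 and SLFN12 were the members with mean levels above 0.5 FPKM and entered the fit over all genes, SLFN11 through its WT level alone. In that fit 7.96% of 13167 tested genes passed limma at an adjusted p under 0.05, and no call is given for the members. All 3 had groups without overlap, SLFN5 and SLFN11 lower and SLFN12 higher, as had 31.1% of tested genes. Because this contrast chose the family, nothing is read from that count.

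The order of levels per length was the same in both groups, SLFN12 above SLFN5 above SLFN11, and within each group no library of one gene reached the range of the next. In WT, 44.8% of tested genes had a mean below that of SLFN12, 36.9% below SLFN5 and 20.5% below SLFN11. Summed over the 6 genes, FPKM was 8.40 ± 0.408 in WT and 6.92 ± 0.721 in sgPARP1 (SD, n = 3 each). SLFN11 made up 14.6% to 18.3% of this sum in the WT libraries and 0.154% to 0.427% in the sgPARP1 libraries. SLFN12 held 46.6% to 49.6% in WT and 66.5% to 71% in sgPARP1.

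The coding sequences show which members could share reads. In the longest coding transcripts of GENCODE release 29, SLFN11 and SLFN13 were identical at 86.6% of aligned bases and SLFN12 and SLFN12L at 87.1%, while the other 13 pairs lay between 56.2% and 65.2%. Of the stretches of 50 bases in the SLFN11 transcript, 12.4% also occur in another gene's transcript, in SLFN13 or SLFN12L only, and 1.97% of those of SLFN12 occur in SLFN12L. SLFN13 and SLFN12L themselves had 1 read and 0 reads in the 6 libraries together. The coding lengths set the long members SLFN5 (2673 bases), SLFN11 (2703), SLFN13 (2691) and SLFN14 (2736) apart from the short members SLFN12 (1734) and SLFN12L (1851).

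None of the tested genes around SLFN11, the Schlafen genes set aside, was called lower by limma. Among those tested, the non-coding gene SNHG30, just past the cluster and 194 kb from SLFN11, came nearest. It was at 9.48, 7.96 and 8.61 FPKM in WT and 7.30, 6.21 and 7.92 FPKM in sgPARP1. Its groups did not overlap, as in the 14.9% of tested genes that were lower in this way, and it did not pass (limma adjusted p = 0.159). SLFN11 lies between SLFN5 and SLFN12, which both had RNA in all 6 libraries and whose starts are 130.6 kb and 59.6 kb away. The span of the cluster, 317.7 kb, holds 18 other annotated genes, all non-coding genes or pseudogenes. Of these, 8 had a read, 5 were tested and none passed limma (without adjustment 1 was higher and 0 lower at p under 0.05, as were 12.1% and 12.3% of all tested genes, and 0 were called by voom on the recovered reads). The most abundant of them, the pseudogene ENSG00000267102 just past the 3′ end of SLFN12 on the same strand, was at 3.33, 4.52 and 3.81 FPKM in WT and 4.99, 5.18 and 6.67 FPKM in sgPARP1 (limma adjusted p = 0.0868). Its values were higher in all 3 sgPARP1 libraries, as were those of 16.1% of tested genes. This was also so for SLFN12, from which unspliced or run-on reads cannot be told apart here.

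Within 1 Mb of the cluster the table has 47 other protein-coding genes, 25 of them listed at 0 in all libraries and 9 with enough RNA to be tested. On the SLFN14 side no gene starting more than 358 kb from SLFN11 was tested. TAF15 and GGNBP2 there were listed at no more than 0.0298 and 0.383 FPKM, so that part of the window is not covered. GAS2L2, 380 kb from SLFN11, was also too low to be tested, on 0 to 13 reads. It was at 0.223, 0.0857 and 0.118 FPKM in WT and 0, 0.0385 and 0.0172 FPKM in sgPARP1. Its groups did not overlap, as in the 14.9% of tested genes that were lower in this way. The 9 tested genes had a median log2 fold change of 0.01 against 0.00 over all tested genes. Of the 9, 1 passed, where 3.52% of tested genes were higher and 4.44% lower. This was RASL10B, a Ras-like GTPase gene 358 kb from SLFN11, which rose from 6.10, 4.68 and 4.80 FPKM to 8.09, 8.17 and 7.85 FPKM (log2 fold change 0.55, standard error 0.09, limma adjusted p = 0.0152). Its call was lost without WT replicate 2 or 3 (adjusted p = 0.0577 and 0.0559) and without sgPARP1 replicate 1 or 2 (adjusted p = 0.0634 and 0.0502), and it held without the remaining libraries. The DNA repair genes LIG3 and RAD51D, on the other side of SLFN5, were at log2 fold changes of 0.13 and 0.19 and did not pass limma. With voom, which called 4.91% of tested genes higher and 6.95% lower, RAD51D was higher (adjusted p = 0.0457) and LIG3 did not pass.

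**Figure D2:**
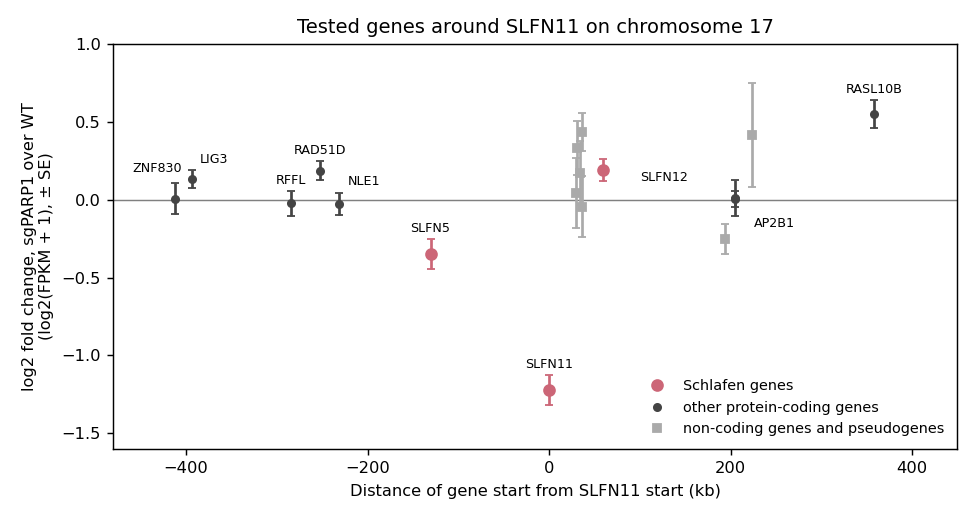
Log2 fold change (sgPARP1 over WT, log2(FPKM + 1) scale, ± standard error) of the tested genes around SLFN11, against the distance of each gene's start from the SLFN11 start in kb; red points are Schlafen genes, dark points other protein-coding genes and grey squares non-coding genes and pseudogenes. SLFN11 stands alone at −1.22, between SLFN5 at −0.35 and SLFN12 at 0.19, and RASL10B is the highest at 0.55; CCL2, 1118 kb away at −0.09, lies outside the axis.

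The ratio of mean FPKM, sgPARP1 over WT, was under 0.1 for 5 of 10428 protein-coding genes tested, SLFN11 among them. The family was selected on this value, and with 6 reads of SLFN11 and 5 of SPINK6 in sgPARP1 the data do not order the lowest genes. SPINK6, a secreted protease inhibitor, went from 15.1 ± 3.0 to 0.174 ± 0.0674 FPKM. The other 3, HAT1, PNP and ATF6B, differed from SLFN11 in that their WT libraries did not agree among themselves. HAT1, a histone acetyltransferase gene, was at 0.0341, 3.95 and 0.586 FPKM in WT, PNP, of purine salvage, at 5.65, 6.10 and 0.306 FPKM, and ATF6B, a stress sensor of the endoplasmic reticulum, at 0.0798, 3.12 and 0.201 FPKM. C8orf33, with a ratio of 0.106, was at 8.25, 0.811 and 8.71 FPKM in WT. SLFN11 and SPINK6 were high in all 3 WT libraries.

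**Figure D3:**
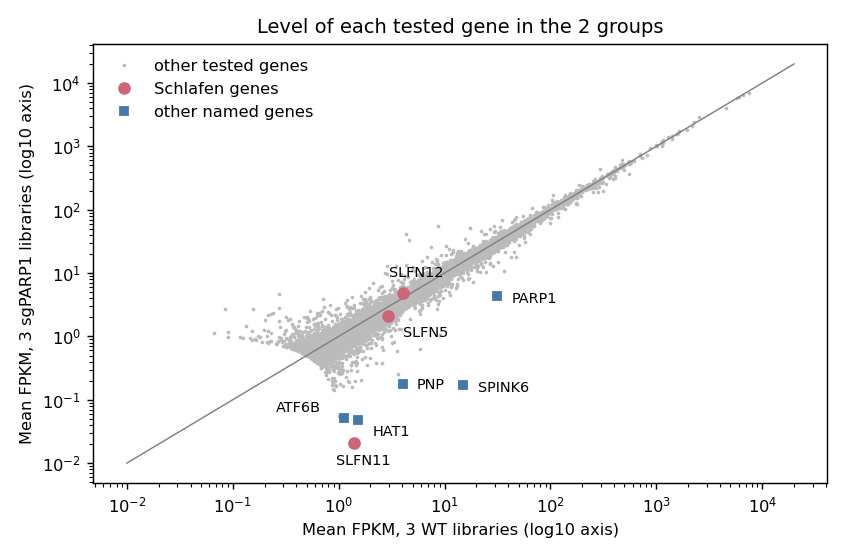
Mean FPKM of each tested gene in the 3 WT libraries (x, log10 axis) against the 3 sgPARP1 libraries (y, log10 axis), with the line of equal levels; Schlafen genes are red and other named genes blue. SLFN12 and SLFN5 lie near the line, at 4.06 and 2.95 FPKM in WT, and SLFN11 lies far under it at 1.39 and 0.0209 FPKM, below the 5 other named genes.

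The protein-coding genes whose log2(FPKM + 1) values followed SLFN11 most closely over the 6 libraries were SPINK6 (Pearson r = 0.999), the calpain CAPN2 (0.999), the cytokine LIF (0.998), the phosphodiesterase PDE9A (0.998) and the adaptor SH3BP2 (0.996). The libraries fall into the 2 groups, so r here mostly states that a gene was lower in sgPARP1 with little spread, and 340 of 10427 genes had an r over 0.95. The falls of these genes were of very different size: CAPN2 had a mean 19.1% lower and LIF 66.3% lower, against 98.5% for SLFN11.

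Genes of replication forks and of their checkpoint were expressed in both groups, with small log2 fold changes. In the replication stress checkpoint, through which the kinases ATR and CHEK1 hold damaged forks, none of 16 tested genes passed limma; without adjustment, 6 were higher and 0 lower at p under 0.05, where 12.1% and 12.3% of all tested genes were, and 0 were called by voom. Their log2 fold changes ran from −0.14 to 0.30, 13 of the 16 being above 0. The median was 0.12, against 0.00 over all tested genes. The most abundant, TIMELESS, of the fork protection complex, was at 41.2 ± 0.894 and 44.8 ± 2.04 FPKM (SD, n = 3 each). Of 17 genes for RPA, the MCM helicase and the factors of replication licensing, RPA2 rose and none fell, 1 gene against a share of 3.52% higher and 4.44% lower over all tested genes, with a list median of 0.03. RPA2, the middle subunit of the complex through which SLFN11 reaches forks, went from 38.2, 37.3 and 35.9 FPKM to 43.8, 41.7 and 46.4 FPKM. Its groups did not overlap, as in the 16.1% of tested genes that were higher in this way. It passed the test (log2 fold change 0.24, standard error 0.05, limma adjusted p = 0.0335). This call held without sgPARP1 replicate 2 (adjusted p = 0.0355) and was lost without each of the other 5 libraries (adjusted p = 0.0663, 0.107 and 0.103 without WT replicate 1, 2 and 3, and 0.11 and 0.0792 without sgPARP1 replicate 1 and 3). RPA1 and RPA3, its partner subunits, were at log2 fold changes of 0.04 and 0.06 and did not pass.

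Genes reported to control SLFN11 gave no call. Of 13 such genes 11 were tested, with log2 fold changes from −0.05 to 0.12 and a median of 0.02. None passed limma, where 7.96% of all tested genes did. Without adjustment 1 was higher and 0 lower at p under 0.05, where 12.1% and 12.3% of all tested genes were. By voom 0 were called, where 4.91% of all tested genes were higher and 6.95% lower. With so few genes, nothing about the list is read from these counts. EZH2, the catalytic subunit of Polycomb complex 2, was at 8.53 ± 0.121 and 8.93 ± 0.327 FPKM, the maintenance DNA methyltransferase DNMT1 at 26.8 ± 0.684 and 27.7 ± 0.0806 FPKM, and the deacetylase HDAC1, the most abundant, at 41.3 ± 0.277 and 39.7 ± 0.657 FPKM (SD, n = 3 each). Among the ETS factors, ETS1 was at 9.32 and 9.49 FPKM, FLI1 was listed at 0 in all libraries, and ERG was too low to be tested, at 0.459, 0.673 and 0.509 FPKM in WT and 0.397, 0.326 and 0.33 FPKM in sgPARP1. ERG, from 38 to 88 reads, was thus lower in every sgPARP1 library, as were 14.9% of tested genes. It was named after its values were seen, and nothing is read from it.

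Some genes of the interferon response, which drives several Schlafen genes, were higher in sgPARP1. Among 14 tested antiviral genes, most of which act on RNA, 4 rose and none fell, where 3.52% of all tested genes were higher. The list median was 0.13. The RNA-binding proteins IFIT3, IFIT2 and IFIT1 and the oligoadenylate synthetase OAS3 made up the 4, and voom also called IFIT5 and ZC3HAV1 higher (adjusted p = 0.047 and 0.0489). IFIT3 was at 3.42, 3.33 and 3.37 FPKM in WT and 5.43, 6.02 and 5.29 FPKM in sgPARP1 (log2 fold change 0.59, standard error 0.06, limma adjusted p = 0.00237). OAS3 was at 2.36, 2.29 and 2.12 FPKM in WT and 3.88, 3.80 and 3.66 FPKM in sgPARP1 (log2 fold change 0.55, standard error 0.06, limma adjusted p = 0.00292). Neither gene's groups overlapped, nor did those of IFIT2 and IFIT1, which had log2 fold changes of 0.50 and 0.47. Over all tested genes, 16.1% were higher without overlap. SAMD9, which like the Schlafens cuts transfer RNA, was at 2.40 ± 0.109 and 2.42 ± 0.41 FPKM (SD, n = 3 each).

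The receptor and signalling part of the pathway gave no call. Of 12 genes 8 were tested, with log2 fold changes from −0.18 to 0.13 and a median of 0.01. None passed limma, where 7.96% of all tested genes did. Without adjustment 1 was higher and 2 lower at p under 0.05, where 12.1% and 12.3% of all tested genes were. By voom 0 were called, where 4.91% of all tested genes were higher and 6.95% lower. With so few genes, nothing about the list is read from these counts. The transcription factor IRF3, the most abundant, was at 20.8 ± 1.53 and 18.2 ± 0.998 FPKM and STAT2 at 5.20 ± 0.232 and 4.60 ± 0.0476 FPKM (SD, n = 3 each). PDE3A, the partner of SLFN12, was at 22.7 ± 1.02 and 22.8 ± 2.09 FPKM (SD, n = 3 each). Of the 3 genes in the list of SLFN12 partners none passed limma (without adjustment, 1 higher and 0 lower at p under 0.05, and 0 by voom). Against the same shares over all tested genes, 3 genes are too few for a reading.

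**Figure D4:**
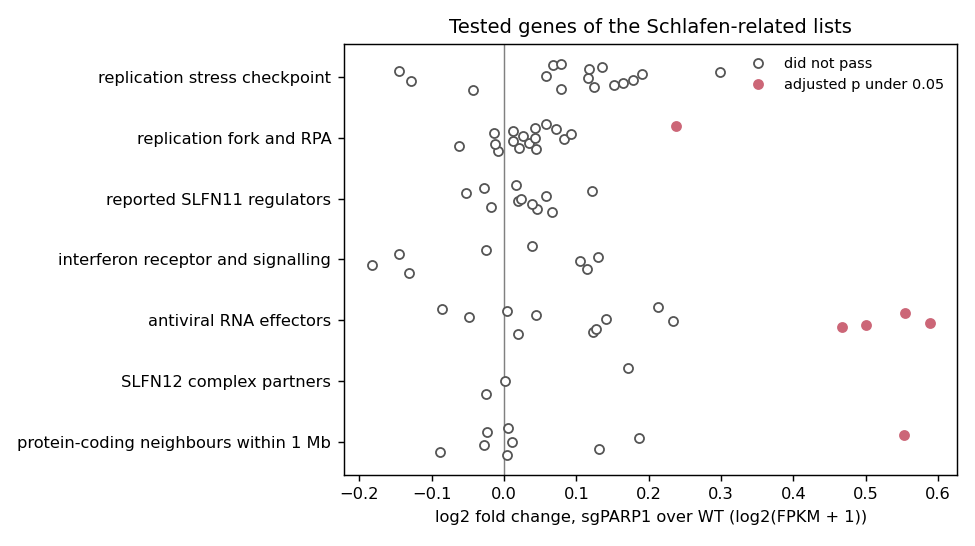
Log2 fold change (sgPARP1 over WT, log2(FPKM + 1) scale) of each tested gene in 7 lists tied to the Schlafen genes, 1 point per gene; filled points passed limma at an adjusted p under 0.05 over all genes. The 6 filled points are RPA2 at 0.24, IFIT1, IFIT2, OAS3 and IFIT3 at 0.47 to 0.59, and RASL10B at 0.55, all to the right of 0.

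Schlafen genes are best known from blood cells, so blood cell markers were read beside them. Of 14 markers 7 were listed at 0 in all libraries, among them CD3E and LYZ, and the pan-leukocyte gene PTPRC had a mean of 0.0014 FPKM in WT and was listed at 0 in sgPARP1. The summed level of the 14 was 0.531 to 1.15 FPKM in WT and 0.936 to 1.27 FPKM in sgPARP1. CD74, the invariant chain of MHC class II, was the only one with enough RNA to be tested. It was at 0.205, 0.409 and 0.323 FPKM in WT and 0.734, 0.817 and 0.667 FPKM in sgPARP1, from 16 to 57 reads. Its groups did not overlap, as in the 16.1% of tested genes that were higher in this way. CD74 passed with voom (adjusted p = 0.0111) but not with limma on the FPKM (adjusted p = 0.0664).

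SLFNL1, a distant relative on chromosome 1 that the family list does not hold, was at 0.55, 0.656 and 0.492 FPKM in WT and 0.681, 1.08 and 0.887 FPKM in sgPARP1. Its groups did not overlap, as in the 16.1% of tested genes that were higher in this way. SLFNL1 did not pass (log2 fold change 0.26, standard error 0.11, limma adjusted p = 0.209). An antisense gene, SLFNL1-AS1, overlaps it at a like level, 0.55 and 0.737 FPKM, and reads of the pair cannot be told apart where the use of strand is not known.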

How the data were processed

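Messenger RNA of 3 WT and 3 sgPARP1 libraries was sequenced, and groups and replicate numbers come from the sample titles. The authors deposited a table of FPKM for 62753 genes with gene lengths and coordinates. The submitters' processing notes name the builds hg38, GRCm38 and mm10 without a role. For the aligner, the counting tool and the use of strand, the sources used here give nothing. All 6 members overlap their GENCODE release 29 gene on the same strand, so coordinates are given as hg38.

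Reads were recovered from the products of FPKM and gene length, which are spaced evenly in each library: 100% of the 12911 to 13114 values of up to 200 reads fell within 0.02 of a whole number. Intervals and limits cover counting error only. Values were tested as log2(FPKM + 1) where the mean over all libraries reached 0.5 FPKM, with limma 3.58.1 (R 4.3.3), a trend and Benjamini-Hochberg adjustment at 0.05 over 13167 genes. The fit was tested on simulated data. Coding sequences were aligned with MAFFT 7.526.

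The members and all gene lists were chosen with earlier results of these data known. Named genes were the members, SLFNL1 and PARP1, up to 3 genes per list with the largest change past the test or else the most abundant, neighbours past the test or nearest, and the 5 genes most like SLFN11 by r or by smallest ratio. Others, such as IFIT1, IFIT5, ZC3HAV1, ERG, EZH2, DNMT1, PDE3A, SAMD9, STAT2, LIG3, RAD51D, TAF15, GGNBP2, GAS2L2, SNHG30 and ENSG00000267102, were chosen after their values were seen. A few genes within the rule are left out of the text. Alternatives were pseudocounts, filters, TPM, voom on the reads, the replicate number as a block, and leaving out each library.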

Additional observations from a re-analysis of the deposited data

How the results depend on the processing

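The size of the SLFN11 difference depends on the scale: its log2 fold change was −1.22, and became −1.85 and −3.62 with pseudocounts of 0.5 and 0.1, −2.52 with TPM, where the pseudocount weighs less, and −5.82 with voom. It ran from −1.27 to −1.20 without 1 library. With a minimum of 5 FPKM none of the 3 members was tested. SLFN5 ran from −0.44 to −0.27 and SLFN12 from 0.14 to 0.24 without 1 library. SLFN5 was −0.51 with voom. The count of 1048 changed genes became 587 with no filter, 413 to 654 without 1 library and 1561 with voom. The 6 called genes of the lists and neighbours became 4 to 9 over all settings, 9 with voom; the cause was not tested. Same-numbered libraries deviated together little (r = 0.041, 0.081 and −0.026), so no strong pairing by number was seen. With 3 libraries per group, this cannot settle if they were handled in pairs. With the replicate block 550 genes were called, and RPA2 was lost (adjusted p = 0.0893). With no filter, RPA2 and RASL10B were lost (adjusted p = 0.0744 and 0.0515). Depth limits SLFN11 in sgPARP1, SLFN13, SLFN12L and SLFN14, which rest on 0 to 3 reads per library.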
